A study of Mus musculus with 8 samples.

Results

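The interaction between efferocytosis and LPS/IFNγ asks, gene by gene, whether Mϕ that had engulfed apoptotic cells responded to LPS/IFNγ more or less than naïve Mϕ did. It was computed as the LPS/IFNγ effect in efferocytic Mϕ (LPSEff − Eff) minus that in naïve Mϕ (LPS − Ctrl), on the log2(normalized count + 1) scale, and used all 8 samples of the series. Genes entered if their mean reached 10 normalized counts, which 16309 of the 55359 listed genes had. A positive value stands for a larger induction or a smaller repression after efferocytosis, and a negative value for a smaller induction or a larger repression.

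All samples were bone marrow-derived Mϕ (BMDMs) of wildtype adult C57BL/6 mice of both sexes, differentiated with M-CSF and GM-CSF at 20 ng/mL each. Ctrl cells (naïve, n = 2) were left alone, and LPS cells (n = 2) received 100 ng/mL LPS with 100 U/mL murine IFNγ for 6 h. Eff cells (efferocytic, n = 2) were kept for 16 h with 5 apoptotic NIH-3T3 cells per Mϕ and then washed, and LPSEff cells (n = 2) were given LPS/IFNγ for 6 h after that wash. The NIH-3T3 CA fibroblasts were a clone of a mouse line that dies when the dimerizer, here at 10 nM, joins its engineered caspase-8, so the eaten cells were mouse cells whose transcripts map to the same genome. By the methods the dimerizer stayed in the 16 h co-culture, so the Mϕ of Eff and LPSEff were exposed to it, and it is listed for no Ctrl or LPS sample. Effects of the dimerizer and of efferocytosis cannot be told apart here. CD45+ cells were then collected on magnetic beads, and total RNA was sequenced after depletion of rRNA. Replicates carry the numbers 1 and 2, and no source used here says whether they came from separate cultures or mice, so p-values measure only the spread between these samples, which may be technical.

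Efferocytosis is the engulfment and digestion of dying cells, which loads a Mϕ with sterols, lipids, nucleotides and amino acids of its prey and is known for a shift towards resolution of inflammation. LPS signals through the receptor TLR4 to NF-κB and to type I interferon, and IFNγ through its own receptor. Together they induce cytokines, chemokines, prostaglandin synthesis and antiviral genes, and they turn down proliferation, ribosome production and many homeostatic genes. Sterol synthesis genes answer to the transcription factor SREBP2, which is held inactive while membrane cholesterol is plentiful.

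Between 3481288 and 12020918 reads per sample were assigned to genes (median 8431112.5), and 3 reads were worth 1.73 to 5.71 normalized counts, which covers counting error only. The 12 Mϕ markers all had reads in every sample, and their summed level lay between 110540 and 165430 normalized counts. The 8 lymphocyte markers summed to at most 21.99 and the 5 mast cell markers to 13.1 to 135. The 8 neutrophil markers summed to 1118 and 723 normalized counts in Ctrl, 1865 and 2213 in LPS, against 1618 and 1143 in Eff and 2648 and 1868 in LPSEff. The 8 dendritic cell markers summed to 4425 and 9360 normalized counts in Ctrl, 10444 and 22925 in LPS, against 2632 and 5939 in Eff and 8150 and 12521 in LPSEff, so that within each replicate number they were lower after efferocytosis. The neutrophil sums of Eff lay above those of Ctrl, those of LPSEff and LPS overlapped, and the dendritic cell sums overlapped in both pairs of groups. The 22 fibroblast markers summed to 291 and 488 normalized counts in Ctrl, 1110 and 1127 in LPS, against 2540 and 5361 in Eff and 7429 and 7173 in LPSEff. Of the 22, 6 had no read in Ctrl replicate 1 and none was at 0 in Eff or LPSEff, and the sums were higher in both groups that had met NIH-3T3 cells than in those that had not. In bulk libraries such as these, more cells of a type and more RNA per cell cannot be told apart.

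Promoter sequence helps to read the groups of genes described below. Short motifs were searched on both strands from 250 bases before to 50 after the start site in the RefSeq table of build GRCm38.p6, which held 27025 gene symbols, the first listed start being used for each. The interferon-stimulated response element (ISRE, GAAANNGAA) was present in 27 of the 44 interferon response genes with a promoter (61.4%), against 8.57% of all promoters. It was also present in 15.4% of the 513 induced genes with a positive interaction in both replicate numbers, and in 8.41% of the 642 with a negative one. The share was 7.52% of the 10235 tested genes with a promoter. The 513 include interferon response genes such as Ifit1 and Rsad2, so these comparisons are not separate. The NF-κB motif (GGGANTTTC) was found in 3 of 17 proinflammatory cytokine genes and in 4 of 16 chemokine genes, against 1.15% of all promoters, and the sterol regulatory element (SRE, TCACNCCAC) in 1 of 24 sterol and fatty acid genes, against 1.22%. In the same 513 and 642 induced genes, the shares were 1.75% and 2.49% for NF-κB and 0.975% and 0.779% for SRE. Other motifs searched were AP-1 (TGANTCA, 9.94% and 6.39%), CRE (TGACGTCA, 1.56% and 3.74%), GAS (TTCNNNGAA, 8.97% and 7.79%) and E-box (CACGTG, 8.77% and 8.57%). A match describes letters in this window only, and some matches overlap. The windows below, each 100 bases 5′ to 3′ and ending before the start site, show the ISRE matches of 4 interferon genes, the NF-κB matches of Il6 and Cxcl3, and the SRE match of Hmgcs1, all in capitals.
Ifit1, chr19:34640747-34640846, + strand: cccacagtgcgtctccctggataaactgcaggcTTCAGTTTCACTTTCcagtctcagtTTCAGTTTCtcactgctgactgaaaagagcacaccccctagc
Ifit3, chr19:34583355-34583454, + strand: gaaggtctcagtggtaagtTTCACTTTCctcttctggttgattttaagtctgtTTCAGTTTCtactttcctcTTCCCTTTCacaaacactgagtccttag
Isg15, chr4:156200837-156200936, - strand: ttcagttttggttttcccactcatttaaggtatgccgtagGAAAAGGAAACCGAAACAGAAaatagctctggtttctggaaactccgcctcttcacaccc
Rsad2, chr12:26456518-26456617, - strand: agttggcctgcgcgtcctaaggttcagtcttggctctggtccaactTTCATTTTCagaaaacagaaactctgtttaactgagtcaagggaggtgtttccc
Il6, chr5:30013014-30013113, + strand: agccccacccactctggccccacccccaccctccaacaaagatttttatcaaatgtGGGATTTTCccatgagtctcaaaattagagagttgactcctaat
Cxcl3, chr5:90785982-90786081, + strand: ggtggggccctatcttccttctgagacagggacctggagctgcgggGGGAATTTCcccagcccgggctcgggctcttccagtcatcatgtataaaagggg
Hmgcs1, chr13:119690168-119690267, + strand: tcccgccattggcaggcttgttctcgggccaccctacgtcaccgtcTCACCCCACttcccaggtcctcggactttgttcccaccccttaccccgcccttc

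The measured responses of most genes lay close to each other with and without prior efferocytosis, and no gene passed the limma test of the difference. The interaction was within 0.5 of 0 on the log2 scale for 75.2% of the tested genes, and 1 or more in size for 1108 genes (6.79%), while the median standard error of an interaction was 0.46. By limma with Benjamini-Hochberg adjustment, 0 of 16309 genes (0%) were called at an adjusted p under 0.05, the smallest adjusted p being 0.99991, and 311 (1.91%) had an unadjusted p under 0.05. edgeR and DESeq2 without the replicate number also called 0 genes, with 369 and 244 at an unadjusted p under 0.05. DESeq2 with the replicate number as a block, an alternative added after the values had been seen, called 29 genes (0.178%), while limma and edgeR with that block called 0, with 1052 and 1105 at an unadjusted p under 0.05. Single genes below are therefore given as values with their standard errors (SE, n = 2 per group), and none of them differed beyond the threshold in the limma fit. These SEs come from the fit without the replicate number, whose residual also holds differences shared by samples of equal number. If no gene differed, a calibrated test would put a share near 0.05 of genes under an unadjusted p of 0.05. That limma fit gave 1.91%, and limma with the block 6.45%. The fit without the block was thus conservative, and 0 calls do not show that the responses were equal. Most genes named below were chosen by their interaction, which favours groups that do not overlap. The share of all tested genes with such groups was not counted.

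**Figure D1:**
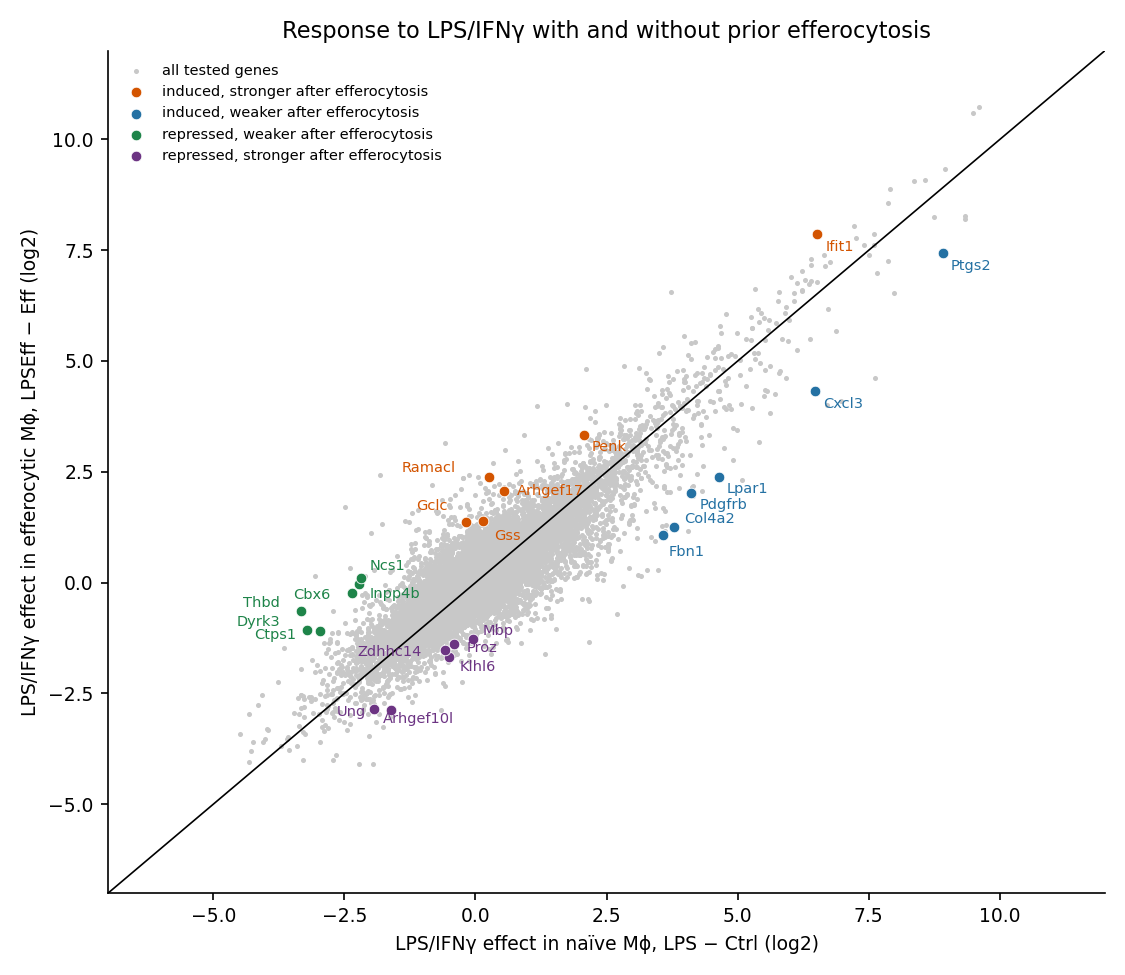
LPS/IFNγ effect in naïve Mϕ (x axis, log2) against that in efferocytic Mϕ (y axis, log2) for 16309 genes, each a grey point and each effect a difference of means of 2 samples. The line marks equal effects, and the coloured genes are the 6 of each class whose interaction was largest in the replicate number where it was smaller; most grey points lie close to the line.

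To order the genes, the mean LPS/IFNγ effect over both contexts was used, which is a separate contrast from the interaction in this balanced design. It was called higher for 2917 genes (17.9%, induced) and lower for 3029 genes (18.6%, repressed) by limma at an adjusted p under 0.05. A gene could enter either class through its effect in naïve or in efferocytic Mϕ alone. Samples rescaled to equal totals gave 1828 induced and 6337 repressed genes instead, since that scaling moved the median mean effect of all genes to −0.42, whereas it moved the median interaction from 0.01 to −0.04. The interaction was positive in both replicate numbers for 4676 genes (28.7%) and negative in both for 4268 (26.2%), and the remaining 7365 genes changed sign. Genes are not independent of each other; across them, the interactions of numbers 1 and 2 correlated with Pearson's r = 0.14 over all genes, 0.28 over the induced and 0.26 over the repressed ones.

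The median interaction was slightly above 0 for repressed and slightly below 0 for induced genes. The median interaction of the repressed genes was 0.09 (0.06 in number 1 and 0.11 in number 2), against 0.01 for all tested genes, and 60.4% of them had a positive value. In both numbers 1148 repressed genes were positive and 612 negative. Among induced genes the median was −0.04 (−0.0031 and −0.07), with 774 positive and 950 negative in both numbers. These medians were small enough to change sign when 1 library was left out: without LPSEff replicate 2 the median of the repressed genes was −0.03, and without Eff replicate 2 that of the induced genes was 0.03. Such a fit leaves the replicate numbers unbalanced, so differences between the numbers enter its interaction.

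The interaction also varied with the size of the response. Its median was 0.13 for the 1396 genes with a mean effect from −2 to −1, was −0.0035 for the 3869 genes with a mean effect from 0 to 0.5, and was −0.11 for the 1497 genes with a mean effect from 1 to 2. For the 161 genes induced by more than 4 it was 0.23, and 32 of those 161 belonged to the interferon list. Without these 32 it was 0.12 over 129 genes, with 0.17 in number 1 and −0.03 in number 2.

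**Figure D2:**
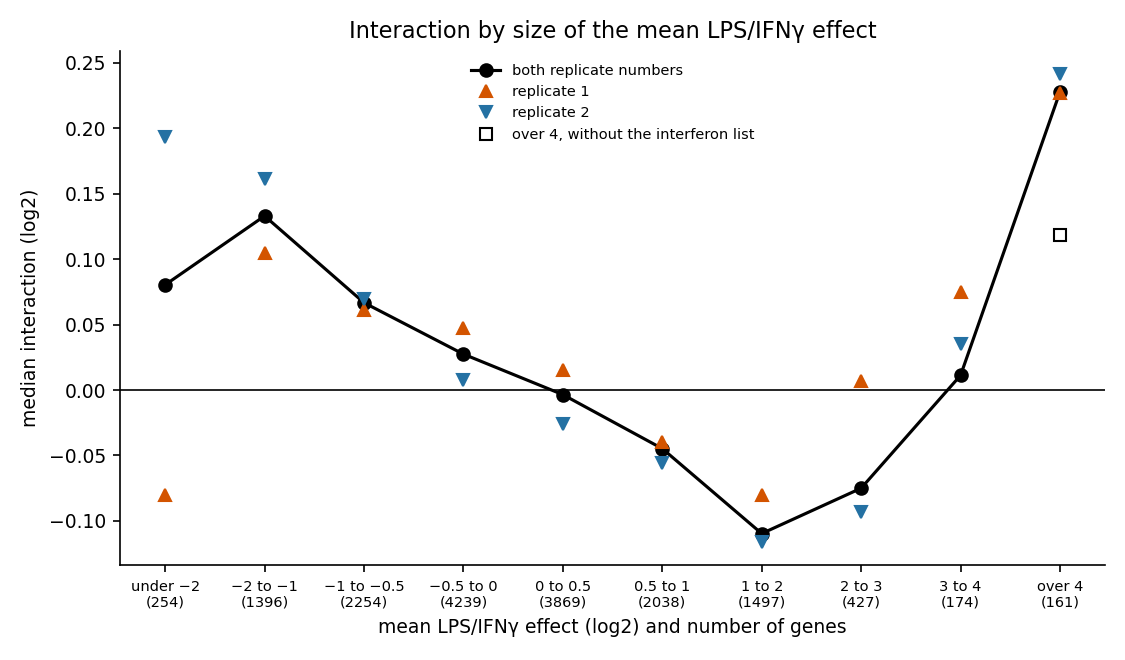
Median interaction (y axis, log2) of genes grouped by their mean LPS/IFNγ effect (x axis, log2, number of genes in brackets), with both replicate numbers together (black) and each alone (triangles). The black line is highest among the 161 genes induced by more than 4 (0.23) and lowest at a mean effect from 1 to 2 (−0.11); the open square leaves out the interferon list.

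A difference of at least 1 in both replicate numbers was seen for 200 genes upwards (1.23%) and 171 downwards (1.05%). Of these, 28 were induced genes with a larger and 63 induced genes with a smaller response after efferocytosis, and 42 were repressed genes with a shallower and 10 repressed genes with a deeper repression. These groups were chosen by the interaction, so their other medians are descriptions only. In the 63 with a smaller induction, the unstimulated level was higher in efferocytic Mϕ (median Eff − Ctrl of 1.23) and the stimulated level lower (median LPSEff − LPS of −0.51). In the 42 with a shallower repression the unstimulated difference was −0.11 and the stimulated one 1.28. At least 1 group had a mean under 10 normalized counts in 47 of the 63 and in 13 of the 42.

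Ptgs2 and Cxcl3 were among the genes induced less after efferocytosis. Ptgs2 (ENSMUSG00000032487, GRCm39 chr1:149975194-149983978, + strand) encodes cyclooxygenase 2, the inducible enzyme of prostaglandin synthesis. Its level was 83.8 and 86.7 normalized counts in Ctrl, 45345 and 37842 in LPS, against 235 and 279 in Eff and 44402 and 44283 in LPSEff. Both Eff values thus lay above both Ctrl values, while the stimulated groups overlapped. The LPS/IFNγ effect was 8.91 in naïve and 7.43 in efferocytic Mϕ, an interaction of −1.48 ± 0.26 (SE), with −1.51 and −1.45 in the replicate numbers. Its antisense neighbour is Ptgs2os. By default htseq-count counts by strand, but whether the reads keep the strand of the RNA is not given in the sources used here.

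Cxcl3, a chemokine that draws neutrophils through the receptor CXCR2, had 85.7 and 37.6 normalized counts in Ctrl, 7489 and 3548 in LPS, against 917 and 272 in Eff and 9915 and 10048 in LPSEff. Here too the unstimulated efferocytic samples were higher than the naïve ones, so the span of the response was smaller although its end point was not. The interaction was −2.16 ± 0.85, with −2.999 in number 1 and −1.32 in number 2. Its relatives Cxcl1 and Cxcl2, the latter named after its values were seen, had interactions of −1.44 ± 0.78 and −1.17 ± 0.80. Jag1, a Notch ligand also named after its values were seen, had 150 and 213 normalized counts in Ctrl, 1357 and 1370 in LPS, against 512 and 279 in Eff and 957 and 985 in LPSEff, an interaction of −1.56 ± 0.42.

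A second pattern was a lower end point. Il6, the acute-phase cytokine that the study followed, had 11.4 and 15.6 normalized counts in Ctrl, 10573 and 8100 in LPS, against 17.5 and 24.0 in Eff and 6706 and 6060 in LPSEff. Both LPSEff values were below both LPS values and both Eff values above both Ctrl values, and the interaction was −1.12 ± 0.35 (−1.23 and −1.01). Il12a, which encodes the p35 chain of the Th1-driving cytokine IL-12, had no read in either Ctrl sample, 138 and 278 normalized counts in LPS, against 3.51 and 0.706 in Eff and 53.8 and 83.8 in LPSEff. Its stimulated levels did not overlap between naïve and efferocytic Mϕ, and no fold is given for it, because Ctrl was under 3 reads. Tnf, named here after its values were seen, had 1026 and 1053 normalized counts in Ctrl, 16647 and 12948 in LPS, against 1232 and 764 in Eff and 7749 and 7573 in LPSEff. Its interaction was −0.84 ± 0.36, with −1.37 in number 1 and −0.31 in number 2. Ccl1, a chemokine for CCR8-bearing cells, had 19.4 and 152 normalized counts in LPS against 7.13 and 12.7 in LPSEff, and at most 3 reads in the unstimulated samples.

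Not every inflammatory gene followed this order. Il1b, which encodes IL-1β, had 109 and 74.0 normalized counts in Ctrl, 49516 and 30115 in LPS, against 130 and 107 in Eff and 37496 and 35413 in LPSEff, an interaction of −0.48 ± 0.40 within overlapping groups. Il10, the main anti-inflammatory cytokine, went the other way. In Ctrl and Eff it had at most 1.90 normalized counts, against 45.3 and 10.2 in LPS and 219 and 73.6 in LPSEff, so both LPSEff values lay above both LPS values. With the unstimulated groups at or under 3 reads no fold is given, and the fitted interaction of 2.81 ± 1.32 depends on the pseudocount. Mmp12, a Mϕ elastase, was high throughout, at 29524 and 53795 normalized counts in Ctrl, 30954 and 62643 in LPS, against 34223 and 68433 in Eff and 33903 and 92168 in LPSEff. Number 2 was thus above number 1 in every group. The interaction was 0.06 ± 0.84, with −0.08 and 0.21 in the replicate numbers. It was negative without Ctrl replicate 2 (−0.37), Eff replicate 1 (−0.44), LPS replicate 1 (−0.44) or LPSEff replicate 2 (−0.66). In those fits the difference between the numbers no longer cancels.

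**Figure D3:**
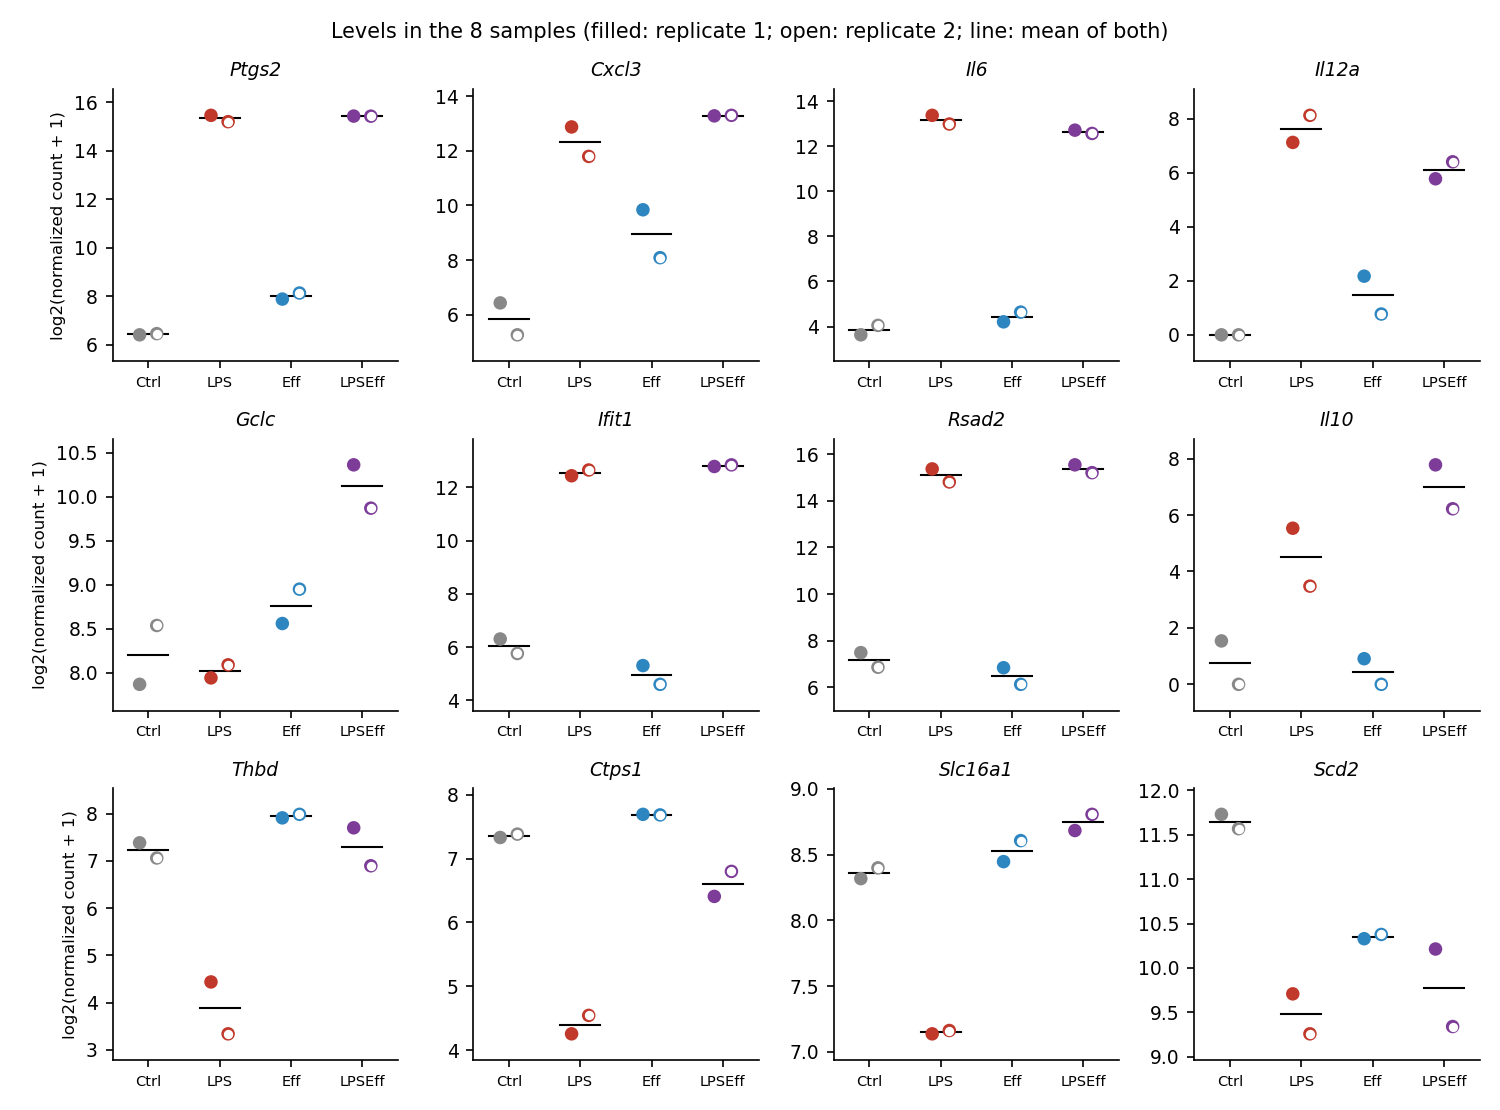
Levels of 12 genes on the log2(normalized count + 1) scale (y axes, which do not start at 0) in Ctrl, LPS, Eff and LPSEff (x axes), with filled points for replicate 1, open points for replicate 2 and a line at their mean. For Ptgs2 Eff is above Ctrl and LPSEff overlaps LPS, for Thbd, Ctps1 and Slc16a1 LPS stands alone at the bottom, and Ifit1 and Rsad2 are lower in Eff than in Ctrl, with LPSEff overlapping LPS for Rsad2.

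Gclc and Gss, of glutathione synthesis, were among the genes induced by their mean effect with a larger response after efferocytosis. In naïve Mϕ alone, limma called neither (adjusted p 0.69 and 0.71). Gclc encodes the catalytic subunit of the first, rate-limiting step, and lies at chr9:77661797-77701770 (+ strand). It had 232 and 370 normalized counts in Ctrl, 244 and 271 in LPS, against 376 and 493 in Eff and 1317 and 935 in LPSEff. LPSEff thus stood apart from the other 3 groups, and the LPS/IFNγ effect was −0.19 in naïve against 1.36 in efferocytic Mϕ, an interaction of 1.55 ± 0.40 (1.73 and 1.37). Gss, glutathione synthetase, which performs the last step, had 124 and 163 normalized counts in Ctrl, 158 and 157 in LPS, against 138 and 187 in Eff and 435 and 412 in LPSEff. Its interaction was 1.24 ± 0.33, again with the LPSEff samples alone above the rest. Both genes were chosen by a positive interaction, which favours such an order.

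The other genes of this class differed in kind. In naïve Mϕ alone, limma called Ifit1 and Penk as induced but not Arhgef17 (adjusted p 0.31) or Ramacl (adjusted p 0.82). Ifit1, an interferon-induced antiviral protein whose promoter is printed above, had 78.1 and 53.2 normalized counts in Ctrl, 5530 and 6426 in LPS, against 38.6 and 23.3 in Eff and 7039 and 7349 in LPSEff, an interaction of 1.35 ± 0.39. It was lower in Eff than in Ctrl and higher in LPSEff than in LPS, without overlap. Penk, the precursor of enkephalins, had 138 and 206 normalized counts in LPS against 307 and 296 in LPSEff, with an interaction of 1.28 ± 0.60. Arhgef17, a guanine nucleotide exchange factor, had 11.4 and 9.83 normalized counts in Ctrl, 19.4 and 13.2 in LPS, against 40.3 and 54.3 in Eff and 236 and 170 in LPSEff, an interaction of 1.52 ± 0.50. Ramacl, at 132 and 50.8 normalized counts in LPS and 167 and 147 in LPSEff, had the largest interaction of this class among genes with at least 10 normalized counts in every group (2.34 and 1.91 in the numbers), but it has a near-identical locus and its counts are uncertain.

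Several genes of low abundance were also induced more. Bdkrb1, the inducible bradykinin receptor, had at most 3.88 normalized counts in the other 3 groups and 42.8 and 49.5 in LPSEff. Il33, an alarmin cytokine, had 16.8 and 4.06 normalized counts in LPS and 104 and 34.3 in LPSEff. Atp13a4, a P5-type ATPase, had 40.4 and 53.3 normalized counts in LPSEff and no more than 20.3 in any other sample. In these genes LPSEff was higher than LPS without overlap, an order that their choice by a positive interaction favours. Bdkrb1 reached the minimum mean only through LPSEff. In naïve Mϕ alone, limma called none of them (adjusted p 0.33 for Bdkrb1, 0.16 for Il33 and 0.64 for Atp13a4). Il1rl1, which encodes ST2, the receptor of IL-33, was not among the induced genes by its mean effect and is named after its values were seen. It had 30.5 and 56.1 normalized counts in Ctrl, 19.4 and 35.5 in LPS, against 136 and 400 in Eff and 708 and 1034 in LPSEff. The naïve groups overlapped, Eff was above them and LPSEff above Eff, and the interaction was 2.50 ± 0.77. The fibroblast markers were likewise higher in Eff than in Ctrl and highest in LPSEff, and their part in the values of these genes was not tested.

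Thbd and Ctps1 were among the genes with a shallower repression after efferocytosis. Thbd encodes thrombomodulin, the endothelial and Mϕ receptor that turns thrombin into an anticoagulant enzyme, at chr2:148216045-148250201 (− strand). It had 166 and 132 normalized counts in Ctrl, 20.7 and 9.14 in LPS, against 239 and 252 in Eff and 207 and 118 in LPSEff. LPS stood far below the other 3 groups, with an effect of −3.33 in naïve and −0.65 in efferocytic Mϕ and an interaction of 2.68 ± 0.57 (2.73 and 2.63). Ctps1, CTP synthase, which makes CTP for nucleic acids and phospholipids, had 160 and 166 normalized counts in Ctrl, 18.1 and 22.3 in LPS, against 206 and 205 in Eff and 83.9 and 110 in LPSEff. Here LPSEff lay between LPS and the unstimulated groups, and the interaction was 1.87 ± 0.35.

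Dyrk3, a kinase that dissolves membraneless condensates, had 110 and 127 normalized counts in Ctrl, 11.6 and 12.2 in LPS, against 75.4 and 92.5 in Eff and 34.8 and 44.4 in LPSEff, an interaction of 2.14 ± 0.41. Ncs1, a neuronal calcium sensor, had 9.05 and 15.2 normalized counts in LPS and 83.1 and 100 in LPSEff, and Inpp4b, a phosphoinositide phosphatase, had 12.9 and 33.5 against 127 and 194. Cbx6, a Polycomb subunit whose locus overlaps Npcd on the same strand, had 45.3 and 27.4 normalized counts in LPS and 183 and 179 in LPSEff. For these 3 genes LPSEff was at the level of Ctrl or above it, and the interactions were 2.28 ± 0.48, 2.20 ± 0.71 and 2.13 ± 0.44. Emp1, a membrane protein of epithelia, and Mtap, the methionine salvage enzyme, both named after their values were seen, had interactions of 1.27 ± 0.32 and 1.53 ± 0.55. Angptl4, an inhibitor of lipoprotein lipase and a target of PPARs, had 36.2 and 26.6 normalized counts in Ctrl, 3.88 and 2.03 in LPS, against 200 and 445 in Eff and 283 and 386 in LPSEff. LPS was at 3 reads or fewer, so no fold is given, and the efferocytic groups overlapped each other, both above Ctrl. The summed fibroblast markers were also higher in Eff and LPSEff than in Ctrl, and their part in this value was not tested.

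Slc16a1, named after its values were seen, had fitted responses of opposite sign. It encodes MCT1, a plasma membrane carrier of lactate and pyruvate, at chr3:104545811-104565780 (+ strand). Its level was 318 and 337 normalized counts in Ctrl, 140 and 142 in LPS, against 348 and 389 in Eff and 410 and 447 in LPSEff. The effect of LPS/IFNγ in naïve Mϕ was −1.21 and in efferocytic Mϕ 0.22, and the replicates were close enough for an SE of 0.25 around the interaction of 1.43 (1.42 and 1.44). By limma the effect in efferocytic Mϕ was not called (adjusted p 0.45).

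Deeper repression after efferocytosis was the rarest of the 4 classes. The class rests on the mean effect, so its members need not be repressed in naïve Mϕ. There limma did not call Mbp (−0.06, adjusted p 0.92), Klhl6 (−0.50, adjusted p 0.25) or Proz (−0.41, adjusted p 0.44). It did call Arhgef10l (−1.93, adjusted p 0.0064). Mbp, which encodes myelin basic protein, had 567 and 543 normalized counts in Ctrl, 409 and 698 in LPS, against 556 and 565 in Eff and 187 and 286 in LPSEff, an interaction of −1.22 ± 0.41. Klhl6, a ubiquitin ligase adaptor of haematopoietic cells, had 199 and 173 normalized counts in LPS and 63.3 and 60.9 in LPSEff, and Zdhhc14, a palmitoyltransferase, 56.9 and 68.0 against 30.9 and 34.3. LPSEff was the lowest group without overlap in each of these 3 genes, an order that their choice by a negative interaction favours. Ung, the uracil-DNA glycosylase of base excision repair, had an interaction of −1.25 ± 0.88, Arhgef10l, a guanine nucleotide exchange factor, −0.91 ± 0.51, and Proz, a vitamin K-dependent plasma protein, −0.96 ± 0.49.

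Fbn1 and Pdgfrb, both induced less, are themselves members of the fibroblast marker list. Fbn1, fibrillin 1, had 15.2 and 8.10 normalized counts in Ctrl, 141 and 146 in LPS, against 110 and 179 in Eff and 306 and 284 in LPSEff, an interaction of −2.50 ± 0.49. Col4a2, a collagen IV chain, had 36.2 and 15.6 normalized counts in Ctrl, 585 and 197 in LPS, against 323 and 394 in Eff and 1212 and 600 in LPSEff, and an interaction of −2.52 ± 0.81. Both were already high in Eff, as the summed fibroblast markers were.

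Pdgfrb, the PDGF receptor β, had 15.2 and 11.6 normalized counts in Ctrl, 246 and 245 in LPS, against 19.3 and 38.1 in Eff and 82.3 and 157 in LPSEff, so its level in LPSEff was below that in LPS. Lpar1, a lysophosphatidic acid receptor, had 13.3 and 7.52 normalized counts in Ctrl, 269 and 279 in LPS, against 33.3 and 73.4 in Eff and 272 and 255 in LPSEff. The interactions were −2.08 ± 0.59 and −2.25 ± 0.57. Ereg, an EGF family ligand, had at most 1.90 normalized counts in Ctrl, 435 and 282 in LPS, against 19.3 and 98.1 in Eff and 640 and 920 in LPSEff. Loxl4, a collagen crosslinking enzyme, and Pak3, a kinase, had 27.2 and 40.2, and 17.5 and 24.7 normalized counts in Eff against at most 2.89 in Ctrl. The fibroblast marker list as a whole had a median interaction of −0.03 over 20 tested genes, with 3 positive and 5 negative in both numbers, and its part in the values of these genes was not tested.

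Gene lists for 16 processes were then described by their counts and medians beside those of all tested genes. Of all 16309 tested genes, Eff − Ctrl was below 0 for 8404 and LPSEff − LPS above 0 for 8106. The interferon response list contained 59 tested genes, of which 58 were induced. The median LPS/IFNγ effect in naïve Mϕ was 3.996 and in efferocytic Mϕ 4.53, and its median interaction was 0.40 (0.44 and 0.33), against 0.01 for all genes. The interaction was positive in both replicate numbers for 43 and negative in both for 2 of the 59, against 28.7% and 26.2% of all tested genes. The difference lay mostly in the unstimulated cells, since Eff − Ctrl was below 0 for 56 of the 59 (median −0.49), whereas LPSEff − LPS had a median of −0.07.

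Rsad2, the antiviral enzyme viperin, had 179 and 116 normalized counts in Ctrl, 42308 and 28716 in LPS, against 114 and 69.2 in Eff and 47731 and 37825 in LPSEff, an interaction of 0.98 ± 0.46. Stat2, a subunit of the interferon-activated factor ISGF3 and named after its values were seen, had 748 and 678 normalized counts in Ctrl, 4207 and 4631 in LPS, against 401 and 414 in Eff and 3953 and 3647 in LPSEff, an interaction of 0.59 ± 0.23. Both Eff values were below both Ctrl values in each of these genes. Isg15 and Ifit3, whose promoters are printed above for their ISRE matches, were named after their values were seen and had interactions of 0.46 ± 0.49 and 0.47 ± 0.39, that of Isg15 being −0.07 without Eff replicate 2. Of the interferon-inducible chemokines for the receptor CXCR3, Cxcl9 and Cxcl10 had interactions of 1.12 ± 0.73 and 0.71 ± 0.48, and Cxcl11 one of −1.05 ± 0.58. Leaving out single libraries moved the list's median between 0.20, without LPS replicate 1, and 0.62, without LPS replicate 2.

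Sterol and fatty acid synthesis genes had the highest list median. It was 0.74 (0.98 in number 1 and 0.39 in number 2) over 34 tested genes, of which 29 were positive and 2 negative in both numbers. Efferocytosis without LPS/IFNγ went with lower levels of 33 of the 34, with a median of −0.96, and the median difference with LPS/IFNγ was −0.28. By the mean LPS/IFNγ effect 15 of them were repressed and 3 induced, and the median effect was −0.83 in naïve and −0.26 in efferocytic Mϕ. An unadjusted p under 0.05 was reached by 10 of the 34, against 1.91% of all tested genes.

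Scd2, a stearoyl-CoA desaturase, had 3395 and 3035 normalized counts in Ctrl, 836 and 611 in LPS, against 1286 and 1329 in Eff and 1186 and 647 in LPSEff, an interaction of 1.59 ± 0.41. All 3 treated groups were thus below Ctrl, and LPSEff overlapped LPS. Insig1, which retains SREBPs in the endoplasmic reticulum and is itself an SREBP target, had 533 and 445 normalized counts in Ctrl, 244 and 276 in LPS, against 188 and 171 in Eff and 228 and 209 in LPSEff, an interaction of 1.18 ± 0.27. Fasn, fatty acid synthase, had an interaction of 1.09 ± 0.37, and both it and Insig1 were named after their values were seen. Elovl6, a fatty acid elongase, had 1.24 ± 0.49, whereas Idi1 and Me1, an isoprenoid isomerase and malic enzyme, were the 2 members negative in both numbers, at −0.64 ± 0.73 and −0.36 ± 0.42. Hmgcs1, HMG-CoA synthase, whose SRE match is printed above and which was also named after its values were seen, had 0.71 ± 0.56. The list median was lowest without LPS replicate 1 (0.36) and highest without LPS replicate 2 (1.01).

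Glycolysis and HIF-1 target genes had a median interaction of 0.43 (0.26 and 0.42) over 29 tested genes, with 22 positive and 1 negative in both numbers. Unlike in the lists above, the difference lay with the stimulated cells, where LPSEff − LPS was above 0 for 26 of the 29 (median 0.65) against a median Eff − Ctrl of 0.09. Pdk1, which diverts pyruvate from the mitochondria, had 257 and 366 normalized counts in Ctrl, 225 and 117 in LPS, against 224 and 323 in Eff and 355 and 211 in LPSEff, an interaction of 0.94 ± 0.55. Bnip3, a mitophagy receptor, had 91.8 and 19.3 normalized counts in LPS and 268 and 45.7 in LPSEff, so that LPS and LPSEff overlapped. Without LPSEff replicate 1 the list median was −0.04, whereas number 2, which does not use that sample, gave 0.42 by itself. The list median was 0.08 without LPS replicate 2, 0.69 without LPS replicate 1 and 0.78 without LPSEff replicate 2. A fit without 1 sample leaves the replicate numbers unbalanced, so differences between the numbers enter these medians.

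**Figure D4:**
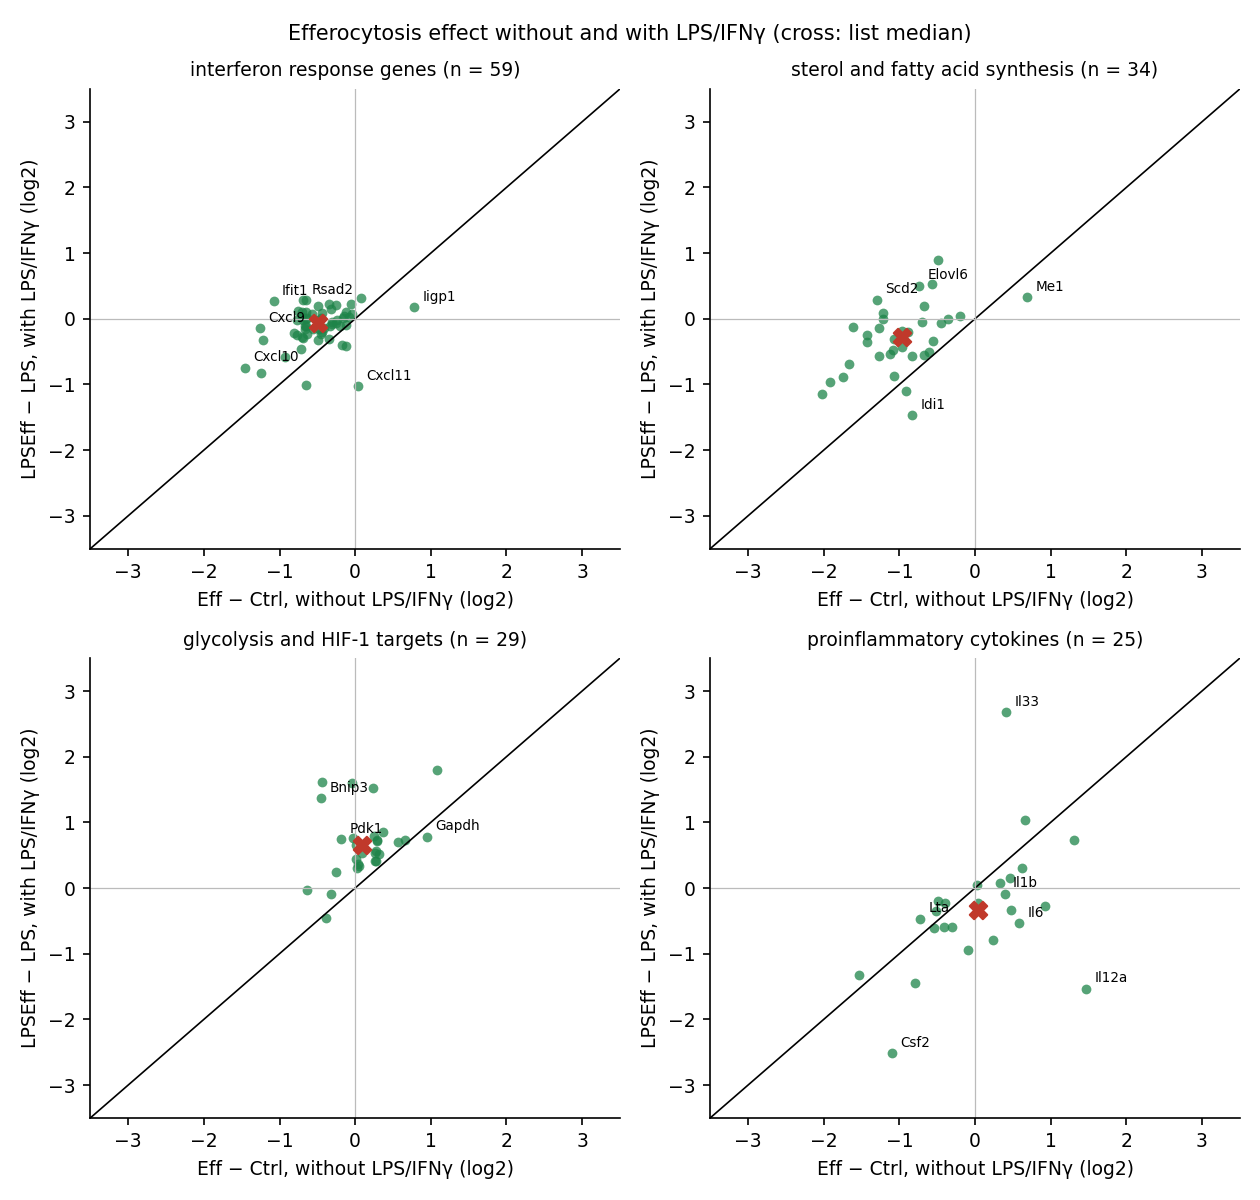
Efferocytosis effect without LPS/IFNγ (Eff − Ctrl, x axis, log2) and with it (LPSEff − LPS, y axis, log2) for the tested members of 4 gene lists, each point being a gene and the cross the list median. Points above the diagonal have a positive interaction: 56 of the 59 interferon genes lie left of 0 on the x axis, with a median near 0 on the y axis, and cytokine genes mostly below the diagonal.

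Ribosome biogenesis genes, which LPS/IFNγ repressed in 37 of 46 cases, had a median effect of −1.11 in naïve and −0.85 in efferocytic Mϕ. Their median interaction was 0.26 (0.14 and 0.41), with 30 positive and 3 negative in both numbers, and LPSEff − LPS was above 0 for 44 of the 46. Dkc1, dyskerin, the pseudouridine synthase of rRNA and telomerase RNA, had 263 and 257 normalized counts in Ctrl, 31.0 and 39.6 in LPS, against 298 and 285 in Eff and 77.6 and 119 in LPSEff, an interaction of 1.27 ± 0.37. Gnl3, nucleostemin, had 105 and 149 normalized counts in LPS and 224 and 325 in LPSEff, with 0.83 ± 0.35. In both genes LPSEff was above LPS without overlap and well below the unstimulated groups. Ltv1 and Nop16, ribosome assembly factors, were at −0.85 ± 0.49 and −0.47 ± 0.63. The list median was 0.15 without LPS replicate 1 and 0.41 without LPSEff replicate 1.

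Lysosome and autophagy genes had a median of 0.17 (0.31 and 0.14) over 52 genes, with 32 positive and 6 negative in both numbers, and unfolded protein response genes one of 0.15 over 31, with 17 and 3. Of the latter, Hspa5, the chaperone BiP, had 0.34 ± 0.30, and Pdia4, a protein disulfide isomerase, 0.27 ± 0.31. LXR targets and lipid handling genes had a median of 0.24 over 29, with 15 and 5. Nr1h3, the receptor LXRα itself, was at −0.41 ± 0.41, and Pdk4, a PPAR target, had 41.2 and 49.5 normalized counts in LPSEff, 20.2 and 29.6 in Eff and at most 1.90 in the naïve samples. Single libraries moved these medians, since without LPS replicate 1 they were 0.02 for lysosome genes and −0.02 for the unfolded protein response, and 0.07 for LXR targets without Ctrl replicate 1.

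Of the process lists, that of proinflammatory cytokines had the lowest median, −0.28 (−0.64 and −0.30) over 25 tested genes, of which 23 were induced. The interaction was negative in both numbers for 14 and positive in both for 6, and the median was −0.65 without Ctrl replicate 2. The chemokine list was divided, with 7 positive and 5 negative of 23 and a median of −0.10 (−0.16 and 0.13) that was 0.21 without Eff replicate 1 and −0.49 without Eff replicate 2. Its median was −0.29 with a pseudocount of 0.5 or with equal totals, −0.25 with a minimum mean of 50, −0.19 with quantile normalization, −0.28 by edgeR and −0.31 by DESeq2. All 6 tested neutrophil markers had a negative interaction, with a median of −0.49, and the 5 tested dendritic cell markers had a median of −0.15. Their part in the values of the cytokine and chemokine lists was not tested. Anti-inflammatory and feedback genes had a median of −0.07 over 36, with 10 and 14, which became 0.11 without LPSEff replicate 2 and −0.31 without LPSEff replicate 1. Within it Dusp5, a phosphatase of ERK, had 1097 and 1396 normalized counts in LPS and 929 and 872 in LPSEff, with −1.02 ± 0.43, Trib1, a pseudokinase scaffold, −0.59 ± 0.46, and Atf3, a repressor of TLR responses, 0.80 ± 0.49.

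The remaining 6 lists lay near the median of all genes. Eicosanoid enzymes and receptors had a median of 0.01 over 20 genes with members in both directions. Ptgs1, the constitutive cyclooxygenase, had 1255 and 1707 normalized counts in Ctrl, 230 and 329 in LPS, against 1626 and 1307 in Eff and 525 and 495 in LPSEff, an interaction of 0.89 ± 0.34 that is opposite in sign to that of Ptgs2. Pla2g4a, the phospholipase that releases arachidonic acid, was at 0.69 ± 0.31, with 786 and 945 normalized counts in LPS and 1243 and 1537 in LPSEff, and Fpr2, a formyl peptide and lipoxin receptor, at −0.70 ± 0.47.

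MHC class II presentation had a median of 0.0023 over 12 genes, DNA replication and cell cycle 0.01 over 52, efferocytosis receptors 0.09 over 30, ATF4 targets 0.07 over 30, and tissue repair and matrix genes −0.02 over 34. Positive and negative members in both numbers were 2 and 2, 16 and 10, 8 and 5, 6 and 5, and 9 and 9, in the same order. Each of these medians, and that of the eicosanoid list, changed sign when some single libraries were left out, the widest range being that of MHC class II, from −0.77 without LPS replicate 1 to 0.69 without LPS replicate 2. Such ranges also take in differences between the replicate numbers, and the MHC class II medians within numbers 1 and 2 were 0.12 and −0.22. DNA replication genes were repressed in 43 of 52 cases, with a median effect of −1.38 in naïve and −1.24 in efferocytic Mϕ. Among repair genes Mmp9, gelatinase B, had 64.7 and 34.5 normalized counts in LPS and 243 and 300 in LPSEff, and an interaction of 1.13 ± 0.52.

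**Figure D5:**
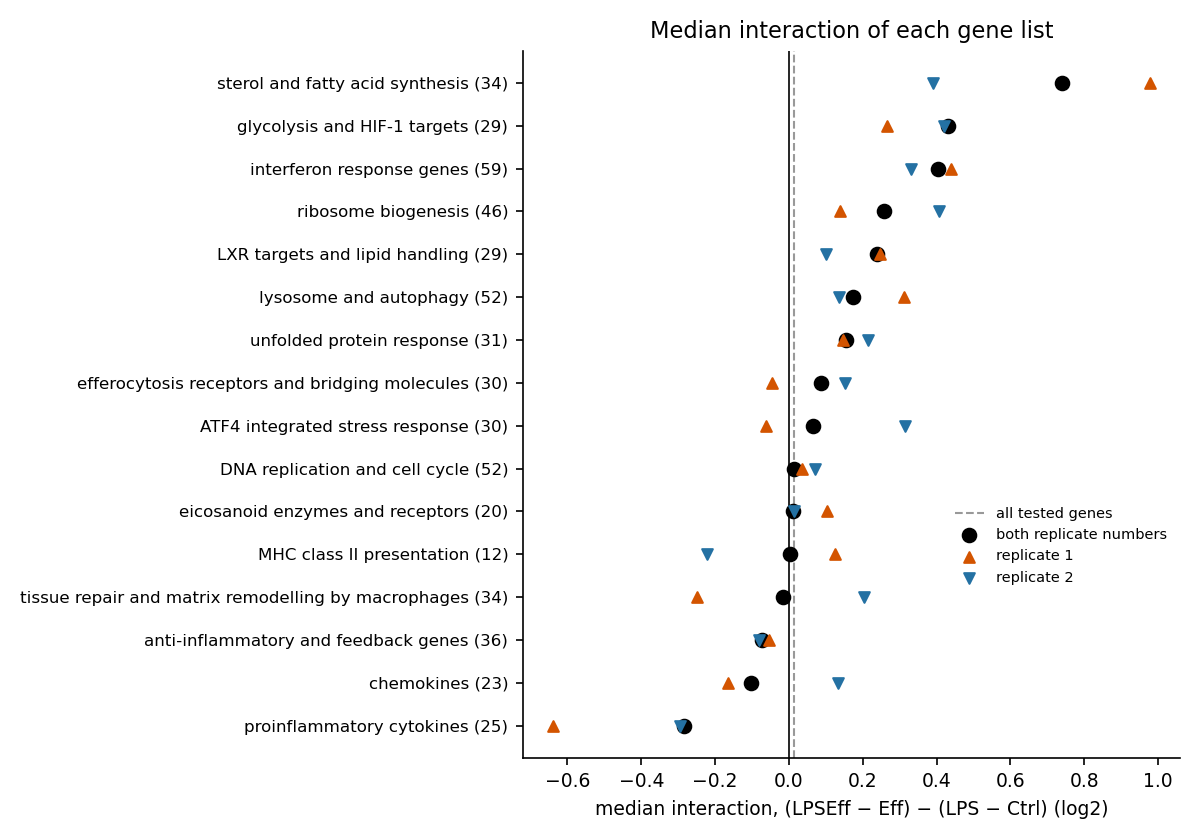
Median interaction (x axis, log2) of 16 gene lists (rows, number of tested genes in brackets) with both replicate numbers together (black) and for each number alone (triangles); the dashed line is the median of all tested genes (0.01). Sterol synthesis is highest (0.74) and proinflammatory cytokines are lowest (−0.28), and both keep their side of 0 in each number.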

How the data were processed

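RNA of 8 BMDM samples, 2 in each of 4 groups, was sequenced from total RNA libraries depleted of rRNA. Per the labels and methods, the authors trimmed reads with cutadapt, removed rRNA reads with bowtie2, aligned to mm39 with STAR, counted per gene with htseq-count at default settings and normalized with DESeq2, with versions not given in the sources used here. The deposited values are a signal, namely read counts per gene divided by a size factor for each sample. Whole reads were recovered from their steps, 100% of values being whole within 0.01 reads, and served for depth, the floor of 3 reads and the count tests. Columns left unmapped numbered 0.

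Values were tested on the log2(normalized count + 1) scale by limma 3.58.1 (R 4.3.3) with a mean-variance trend, 4 group means over all samples and Benjamini-Hochberg adjustment over 16309 genes, with 4 residual degrees of freedom. A pseudocount of 1 understates the change of low genes. Summaries and promoter searches used Python 3.11.15 and pandas 2.3.3. Alternatives were pseudocounts of 0.5 and 5, a minimum mean above 0 or of 50, equal totals, quantile normalization, the replicate block, edgeR 4.0.16, DESeq2 1.42.0 and each sample left out. The scripts were tested on simulated data. Many named genes overlap a gene on the other strand. By default htseq-count counts by strand, and whether the reads keep it is not given in the sources used here.

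Genes were named by rule. These were the first 6 of each of 4 classes (induced or repressed, more or less) with at least 10 normalized counts in every group, ranked by the smaller of both within-number interactions, the first 5 in each direction among genes with a group under 10, the first 2 in each direction of each list as far as space allowed, and Il1b, Il6, Il10 and Mmp12. Genes without a name of their own were passed over in the first 2 parts. The comparison, its gene lists and these rules were chosen with earlier results of these data known.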

Additional observations from a re-analysis of the deposited data

Results flagged for a closer look

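With the replicate number as a block, an alternative added after the data had been seen, DESeq2 called an interaction for 29 genes, of which 26 have a gene name; limma and edgeR with the same block called 0. Higher values were called for 20 and lower values for 9, and in all 29 the sign was the same in both replicate numbers. DESeq2 gave no adjusted p for 5375 of the 16309 genes.

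On the log2 scale of that fit, the positive interactions of genes described in the report were 3.498 for Angptl4, 2.71 for Thbd, 2.49 for Il1rl1, 2.14 for Inpp4b, 2.09 for Cbx6, 1.90 for Ctps1, 1.61 for Gclc, 1.59 for Scd2, 1.55 for Mtap, 1.42 for Slc16a1 and 1.24 for Emp1. The others were 1.23 for Slamf7, a receptor of the SLAM family, 1.05 for Mcoln2, an endolysosomal cation channel, 1.00 for Cln8, an endoplasmic reticulum protein needed for lysosomal enzyme transport, and 0.92 for Fnip2, a partner of folliculin. The mitochondrial tRNA genes mt-Tp and mt-Tm had 1.56 and 1.27. The negative ones were −2.80 for Fbn1, −2.76 for Col4a2, −2.61 for Lpar1, −2.33 for Pdgfrb, −2.15 for Scube2, a secreted protein of the hedgehog pathway, −1.57 for Jag1, −1.51 for Ptgs2, −1.26 for Jade2, a chromatin factor, and −1.21 for Osm, the cytokine oncostatin M. Fbn1 and Pdgfrb are fibroblast markers, and the part of fibroblast transcripts in these values was not tested.

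For Slc16a1, Insig1 and Pdk4, both LPS samples were below both Ctrl samples and both LPSEff samples above both Eff samples. The share of all tested genes with this order was not counted. By limma the rise in efferocytic Mϕ was not called for Slc16a1 (adjusted p 0.45), Insig1 (adjusted p 0.37) or Pdk4 (adjusted p 0.39). Pdk4 had 1 and 3 reads in Ctrl and 0 and 1 in LPS, too few to order these groups. The interaction in the limma fit was 1.43 for Slc16a1, 1.18 for Insig1 and 1.85 for Pdk4, and no gene passed the threshold of that test. Pdk4 was at 3 reads or fewer in the naïve groups and Angptl4 in LPS, so their fitted values depend on the pseudocount or prior and are no bounds.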

How the results depend on the processing

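Without any 1 sample, limma called 0 interactions, the called mean effects ranged from 2413 to 2757 higher and 2211 to 2951 lower, and the median interaction ran from −0.17 to 0.032 for induced and −0.030 to 0.22 for repressed genes. List medians ran from −0.65 to −0.23 for proinflammatory cytokines, −0.49 to 0.21 for chemokines, −0.31 to 0.11 for anti-inflammatory and feedback genes, 0.20 to 0.62 for interferon response genes, −0.77 to 0.69 for MHC class II presentation, 0.36 to 1.01 for sterol and fatty acid synthesis, 0.065 to 0.33 for LXR targets and lipid handling, −0.046 to 0.27 for efferocytosis receptors and bridging molecules, −0.042 to 0.78 for glycolysis and HIF-1 targets, −0.12 to 0.32 for DNA replication and cell cycle, 0.15 to 0.41 for ribosome biogenesis, −0.022 to 0.29 for unfolded protein response, −0.038 to 0.37 for ATF4 integrated stress response, 0.023 to 0.36 for lysosome and autophagy, −0.29 to 0.038 for tissue repair and matrix remodelling by macrophages and −0.18 to 0.23 for eicosanoid enzymes and receptors. Equal totals gave 1828 higher and 6337 lower calls and medians of −0.11 for induced, 0.0038 for repressed, −0.12 for feedback, −0.035 for DNA replication and 0.10 for unfolded protein response genes. Quantile normalization gave 0.036 for repressed, 0.089 for LXR and 0.094 for unfolded protein response genes. DESeq2 gave −0.31 for chemokines and −0.010 for DNA replication, and with the replicate block −0.018 for the latter and 29 interaction calls; edgeR with the block gave 4503 higher calls. Both blocked count fits were added after the data were seen. The limma fit with the replicate block called 0 interactions (smallest adjusted p 0.136), 4265 higher and 4327 lower mean effects. Samples of equal number deviated together from their group means (r from 0.404 to 0.595 over genes), so they shared more than a label. What they shared is not given in the sources used here, and only 2 numbers exist. The main limma fit ignores it. The fits without 1 sample ignore it too and leave the numbers unbalanced, so differences between the numbers enter their interactions. Of 304 alternative list medians 270 kept their sign, and for 6 lists (proinflammatory cytokines, interferon, sterol, LXR, ribosome biogenesis, lysosome) all did. Of 1604 alternative values of 85 named genes, 1573 kept direction and side of the threshold, 26 passed it with the same direction, and 5 reversed. These were Isg15 without Eff replicate 2 (−0.073; range −0.073 to 1.00) and Mmp12 without Ctrl replicate 2 (−0.37), Eff replicate 1 (−0.44), LPS replicate 1 (−0.44) or LPSEff replicate 2 (−0.66; range −0.66 to 0.79). Mmp12 was higher in number 2 than in number 1 in every group, a difference that enters its interaction once 1 sample is left out. The cause of the Isg15 reversal was not tested. Ctrl replicate 1 was the shallowest library and sets the precision of low genes.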
